A study of Arabidopsis thaliana with 12 samples.

Results

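The interaction between tunicamycin treatment and IRE1 genotype was measured across all 12 arrays of the series, which fall by title into 4 groups of 3. For every transcript the change under tunicamycin in ire1a ire1b mutant seedlings was set against the change in wild type, and 418 probe sets differed between the genotypes. The 81 named genes among them that the lists used here placed in a protein class all had the lower response in wild type. All belong to classes whose proteins enter the endoplasmic reticulum (ER). Several of these class lists were added after the values were seen, so this is a description only. Another 111 of the 192 lower named genes are on no list. The groups were ire1a ire1b with tunicamycin, ire1a ire1b with mock, wild type with tunicamycin and wild type with mock, all in the Columbia (Col-0) background. Seedlings were 10 days old, grown at 22 °C and processed whole. Every group also carried the transcription inhibitor actinomycin D (75 µM), given 2 h ahead, and then received 5 mg/l tunicamycin or its solvent DMSO over 5 h. The labels do not say whether the 3 samples of a group were separate cultures, so the p-values measure only how far these samples vary, and that variation may be technical. Alleles of the mutant are not given in the labels, and IRE1A and IRE1B are not among the named probe sets, so their absence from the mutant was not checked.

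IRE1 is an ER membrane protein whose lumenal part senses misfolded protein and whose cytosolic part is an RNase. It splices the mRNA of the transcription factor bZIP60, and it is known to take part in the decay of mRNAs translated at the ER membrane. Tunicamycin blocks N-glycosylation and thereby loads the ER with misfolded protein. Actinomycin D blocks new transcription. Whole seedlings were measured in bulk, so that fewer cells of a type and less RNA per cell cannot be told apart.

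The values are MAS5 signals, a linear intensity per probe set. They were compared as log2, and 13647 probe sets with a mean above log2 6.10 (a signal of 68.7) were tested in limma with Benjamini-Hochberg adjustment over all of them and a threshold of 0.05. The interaction is coded as the wild-type response minus the ire1a ire1b response. A negative value thus means that the change under tunicamycin was lower in wild type than in ire1a ire1b. It can come from a fall in wild type, a rise in the mutant or both. Changes are given ± standard error (SE) of the model, and signals as mean ± SD of 3 arrays. The trimmed mean signal was 500.1 on all 12 arrays, and the median signal ranged from 107 to 119.2. One array stood apart in its effect on the calls: without ire1a ire1b tunicamycin array 3 the lower calls numbered 606 and the higher ones 29. With it they numbered 406 and 12.

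The interaction was one-sided. The response to tunicamycin was lower in wild type than in ire1a ire1b for 406 probe sets (2.98% of those tested) and higher for 12 (0.0879%). The 406 had a median change under tunicamycin of +0.07 in ire1a ire1b and of -1.03 in wild type, against medians of +0.01 and +0.09 over all tested probe sets. Of the 406, 393 also fell in wild type by themselves (background 5.77%), and in ire1a ire1b 0 fell and 1 rose (limma, adjusted; backgrounds 0% and 0.0440%). At an unadjusted p below 0.05, 3 of the 406 (0.739%) were lower and 28 (6.90%) higher under tunicamycin in ire1a ire1b, against 1.33% and 2.34% of all tested probe sets. The change in ire1a ire1b enters the interaction that chose the 406, so these shares are a description only. Point estimates in the mutant lay above 0 for 285 of them and below 0 for 121.

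The genotypes were apart for these transcripts under tunicamycin and closer under mock. The median difference of ire1a ire1b minus wild type was +1.03 under tunicamycin and -0.08 under mock. Under tunicamycin 393 of the 406 were higher in ire1a ire1b than in wild type (background 6.68%) and 0 were lower, whereas under mock 4 were lower (background 0.322%) and 1 was higher (background 0.161%). Of the 12 higher probe sets 11 were lower in ire1a ire1b than in wild type under tunicamycin (background 3.03%). These comparisons share arrays with the interaction and are its components, not separate evidence. The wild-type tunicamycin arrays all lay below the wild-type mock arrays for 401 of the 406, where 11.8% of all tested probe sets showed this. In ire1a ire1b the tunicamycin and mock arrays overlapped for 363, the tunicamycin arrays lay higher for 36 (background 3.96%) and lower for 7 (background 2.71%).

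**Figure D1:**
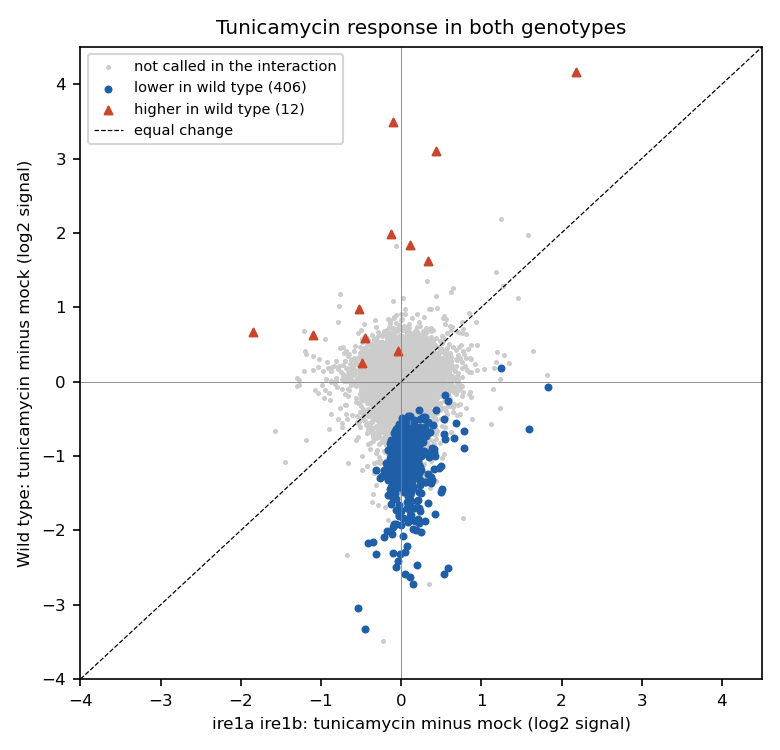
Change under tunicamycin of each tested probe set in ire1a ire1b (x axis, log2 signal, tunicamycin minus mock) and in wild type (y axis, same unit). Blue points are the 406 probe sets lower in the interaction, red triangles the 12 higher ones, grey points the others, and the dashed line marks equal change. The blue points form a column below 0 on the y axis that is centred near 0 on the x axis.

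Of the 406, 192 belong to 1 named gene, 11 to several genes and 203 have no gene listed, so protein class can be read for fewer than 1 in 2 of them. The named probe sets stand for 7296 tested genes, of which 192 (2.63%) were lower in the interaction and 3 higher. Classes took in 537 of the tested genes, by symbol or by lists of locus numbers, and covered 81 of the 192. The classes of secreted, vacuolar and cell wall proteins, joined, had 67 lower of 216 tested (31.0%) with a median interaction of -0.64. Leaving out the loci and lists added after the values were seen, 48 of 142 (33.8%) were lower, with a median of -0.72. The classes of membrane proteins, joined, had 13 lower of 59 (22.0%) and a median of -0.55, and 5 of 25 (20.0%) with a median of -0.56 without the added loci. The cytosolic, nuclear and organelle classes, joined, had 0 lower of 249 and a median of +0.12. This set takes in 27 membrane trafficking proteins, which were not sorted by whether they enter the ER. Of the 249, 89 were placed by loci added after the values were seen, 71 of them ribosomal, 12 mitochondria-encoded and 6 proteasomal. The other 160 also had 0 lower and a median of +0.12. At an unadjusted p below 0.05 the 249 had 1 lower (0.402%) and 7 higher (2.81%), against 7.77% and 3.17% of all tested genes. The median over all tested genes was +0.08. As listed, no class held a higher call, where 0.0411% of all tested genes did. At that share none would be counted among so few genes. The 3 higher genes are known here by locus number and are on no list. Whether they belong to any of these classes was not checked. At an unadjusted p below 0.05 the secretory classes had 0 higher and the membrane classes 1 (1.69%), against the 3.17% of all genes.

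**Figure D2:**
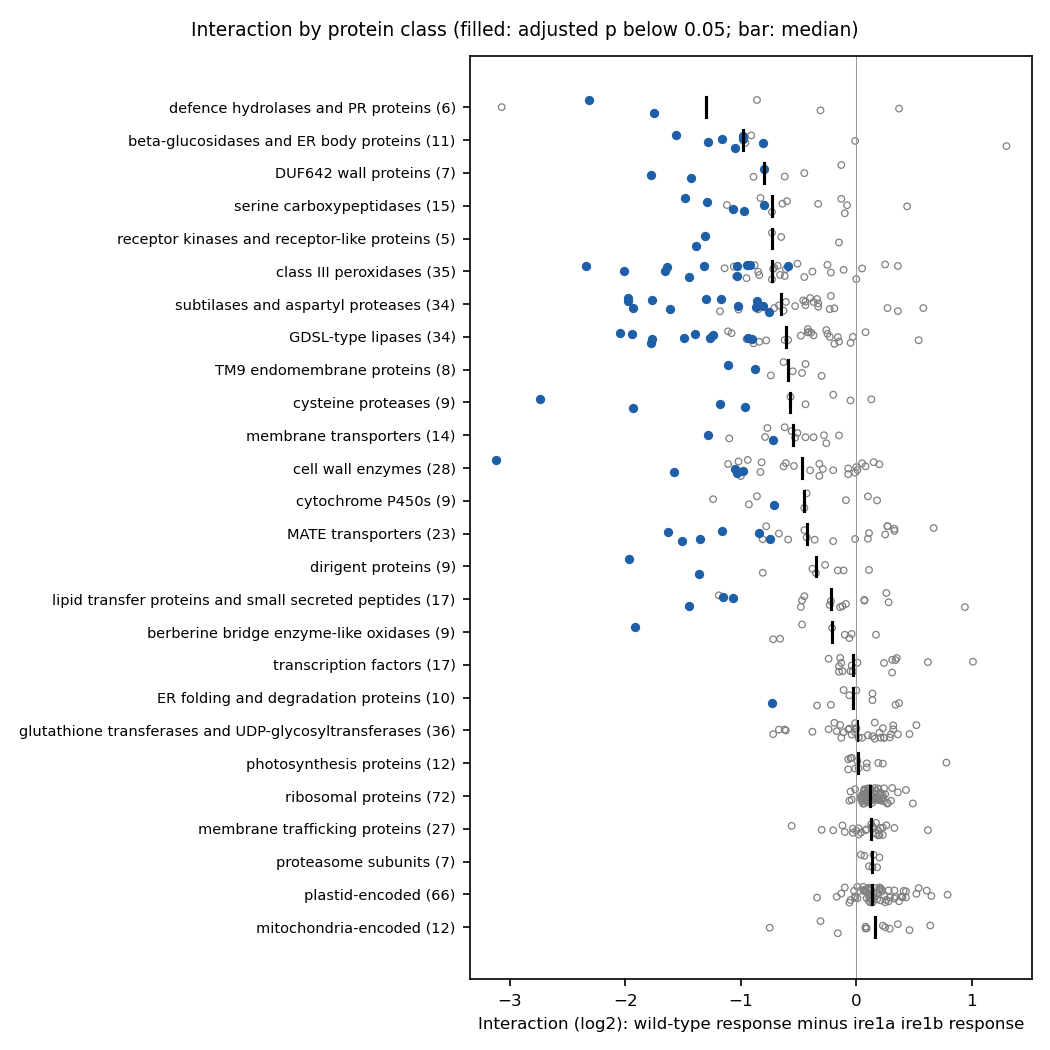
Interaction of every tested gene placed in a protein class (x axis, log2, wild-type response minus ire1a ire1b response), by class (y axis, number of tested genes in brackets). Classes under 5 genes and the unclassified genes are not drawn. Filled blue points passed the threshold, open grey points did not, and black bars are medians. Blue points lie in the classes of secreted and membrane proteins and in 1 ER folding gene, and the ribosomal, plastid-encoded and proteasome genes cluster just above 0.

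Pectin methylesterases modify the pectin of the cell wall, and 1 of them had the lowest interaction of all 406. ATPMEPCRB had signals of 607, 737 and 593 in ire1a ire1b with tunicamycin and of 457, 521 and 365 in ire1a ire1b with mock. Wild type had 92.4, 82.5 and 92.8 with tunicamycin and 662, 510.3 and 449.9 with mock. The wild-type tunicamycin arrays are far below all others, while in ire1a ire1b every tunicamycin array lies above every mock array. The interaction was -3.12 ± 0.24 (limma adjusted p = 1.3e-05), made up of -2.58 ± 0.17 in wild type and +0.54 ± 0.17 in ire1a ire1b (adjusted p = 1 in ire1a ire1b). In the mutant 145% of the mock signal was present under tunicamycin, and in wild type 16.7%.

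Of 28 tested cell wall enzymes 5 were lower, with a class median of -0.47. A second pectin methylesterase, PMEPCRF, averaged 1040 ± 163 and 936 ± 141 in ire1a ire1b with tunicamycin and with mock, against 389 ± 71 and 1032 ± 64.4 in wild type (interaction -1.58 ± 0.23, adjusted p = 0.0016). COB, a protein listed in this class that orients cellulose deposition, had an interaction of -0.98 ± 0.16 (adjusted p = 0.0029). Among the DUF642 wall proteins, a family placed by locus after the values were seen, 3 of 7 were lower (median -0.80). AT2G34510 of that family had 100.2, 98.5 and 101 in wild type with tunicamycin and 356, 323 and 296 with mock, and its interaction was -1.78 ± 0.28 (adjusted p = 0.0025). AT3G08030 of the same family had an interaction of -0.80 ± 0.13 (adjusted p = 0.0041). AT5G11420, with -1.43 ± 0.31 (adjusted p = 0.019), did not pass without wild-type tunicamycin array 1 (0.061), wild-type mock array 2 (0.051), ire1a ire1b tunicamycin array 1 (0.054) or 2 (0.053), or ire1a ire1b mock array 3 (0.055).

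Proteases of the vacuole and the cell wall gave calls in 3 classes. Of 9 cysteine proteases 4 were lower, with a class median of -0.57. GAMMA-VPE, the vacuolar processing enzyme of vegetative tissue, had 2394, 2964 and 1436 in ire1a ire1b with tunicamycin and 1890, 2613 and 1645 with mock. The wild-type arrays had 406, 444 and 370.0 with tunicamycin and 2632, 3064 and 1950 with mock. The mutant groups overlap each other and wild-type mock, with 3 mutant arrays below the lowest wild-type mock array, and the 3 wild-type tunicamycin arrays lie far below all others. Its interaction was -2.74 ± 0.34 (adjusted p = 6.1e-04). The papain-type gene AT4G16190 had an interaction of -1.93 ± 0.38 (adjusted p = 0.012) and the cathepsin B-like gene AT1G02305 of -1.18 ± 0.15 (adjusted p = 6.0e-04).

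Of 34 subtilases and aspartyl proteases 12 were lower (median -0.65), and 15 of the 34 were placed by loci added after the values were seen. The aspartyl protease gene AT3G54400 had 4360, 4726 and 4594 in ire1a ire1b with tunicamycin and 4553, 4097 and 5115 with mock, against 1194, 997 and 1233 and 4532, 3667 and 4889 in wild type. Its change in the mutant was 0.00 ± 0.12 and its interaction -1.93 ± 0.18 (adjusted p = 5.8e-05). The subtilase AT3G14067 had an interaction of -1.98 ± 0.27 (adjusted p = 0.0012). NANA, an aspartyl protease, had -1.77 ± 0.24 (adjusted p = 0.0011), and AT3G52500 had -1.30 ± 0.16 (adjusted p = 6.0e-04). AT1G62290, another aspartyl protease gene, had -1.98 ± 0.42 (adjusted p = 0.017) and did not pass without wild-type tunicamycin array 3 (0.05), wild-type mock array 2 (0.051), ire1a ire1b tunicamycin array 2 (0.052) or ire1a ire1b mock array 1 (0.051).

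Serine carboxypeptidases and their acyltransferase relatives had 5 lower of 15 tested, with a median of -0.73. Without ire1a ire1b tunicamycin array 3 the count was 8. For scpl26 the signals were 1689, 1825 and 1727 in ire1a ire1b with tunicamycin and 1994, 1673 and 1981 with mock. In wild type they were 554, 553 and 613 with tunicamycin and 1870, 1563 and 1731 with mock. The wild-type tunicamycin arrays again stand alone, and the interaction was -1.48 ± 0.15 (adjusted p = 1.6e-04). SCPL49 had -1.29 ± 0.14 (adjusted p = 3.1e-04) and SCPL27 -1.07 ± 0.20 (adjusted p = 0.0089). Both acid phosphatase genes tested were lower, AT4G29270 with -2.37 ± 0.20 (adjusted p = 3.7e-05) and AT4G29260, a nearby locus, with -1.10 ± 0.16 (adjusted p = 0.0018). AT4G29270 averaged 1285 ± 180.1 and 1308 ± 57.1 in ire1a ire1b with tunicamycin and mock, against 276 ± 46.1 and 1461 ± 168 in wild type.

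Class III peroxidases are secreted haem enzymes that cross-link and loosen walls. Of 35 tested 11 were lower, with a median of -0.73 and 32 point estimates below 0. This count leaned on the settings and on single arrays: it was 6 with no filter, 5 with no intensity trend and 16 with array weights. It was 4 to 6 without wild-type tunicamycin array 1, 2 or 3, wild-type mock array 1 or 2, ire1a ire1b tunicamycin array 1 or 2, or ire1a ire1b mock array 1 or 3. Without wild-type mock array 3 it was 8, without ire1a ire1b mock array 2 it was 12, and without ire1a ire1b tunicamycin array 3 it was 15. AT4G30170 had 1458, 1839 and 1202 in ire1a ire1b with tunicamycin and 1470, 1873 and 1053 with mock. Among wild-type arrays it had 388, 316 and 322 with tunicamycin and 1863, 1497 and 1641 with mock, and its interaction was -2.34 ± 0.28 (adjusted p = 4.6e-04). The same-numbered arrays of the mutant run nearly level, and the wild-type tunicamycin arrays average 20.5% of their mock level. AT5G64100 had a smaller interaction of -1.03 ± 0.18 (adjusted p = 0.0047).

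AT3G21770, another peroxidase gene, had the same interaction size of -1.03 ± 0.21 (adjusted p = 0.012) with a different make-up. Its point estimates were +0.54 ± 0.15 in ire1a ire1b (adjusted p = 0.7) and -0.50 ± 0.15 in wild type (adjusted p = 0.065), so that neither passed by itself. AT5G19890, with -2.01 ± 0.50 (adjusted p = 0.048), passed in the fits without ire1a ire1b tunicamycin array 3, ire1a ire1b mock array 2 or wild-type mock array 3. It did not pass in the other 9, with adjusted p from 0.07 to 0.13, nor with no filter (0.078), no intensity trend (0.081) or robust eBayes (0.064).

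Beta-glucosidases and the proteins of the ER body, an ER-derived store in seedlings of the cabbage family, were joined in 1 class. Of its 11 tested genes 10 had point estimates below 0, and the highest, +1.30, did not pass. The class median was -0.98, and 7 of the 11 were lower. That count was 4 without wild-type tunicamycin array 1, 2 or 3, wild-type mock array 1 or 2, or ire1a ire1b mock array 1 or 3. In the other fits without 1 array it was 5 or 6, so none of them reached 7. It was 5 with centring, no filter or no intensity trend, and 8 with array weights. PYK10, the main ER body enzyme, had 23333, 25042 and 25548 in ire1a ire1b with tunicamycin and 22742, 24040 and 22534 with mock. The signals of wild type were 9633, 10241 and 10328 with tunicamycin and 23758, 21963 and 23271 with mock. Its interaction of -1.28 ± 0.10 (adjusted p = 1.3e-05) had the smallest SE of the genes described here. NAI2, needed for ER body formation, had 5824, 7637 and 7200 in ire1a ire1b with tunicamycin and 6497, 6700 and 5988 with mock, against 1631, 1651 and 1829 and 4651, 4640 and 4776 in wild type. Its mutant arrays lay above the wild-type mock arrays in both treatments (+0.45 ± 0.10 under mock, adjusted p = 0.11), and the interaction was -1.56 ± 0.15 (adjusted p = 7.3e-05). BGLU44 had -0.98 ± 0.14 (adjusted p = 0.0014).

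GDSL-type lipases are a large family of mostly secreted esterases. They were grouped by locus after the values were seen, and 10 of 34 were lower (median -0.60). In the fits without 1 array the count ranged from 7 to 13, and it was 13 without ire1a ire1b tunicamycin array 3. AT3G16370 had 10411, 10996 and 6573 in ire1a ire1b with tunicamycin and 9031, 9755 and 8948 with mock. In wild type it had 2873, 2977 and 2890 with tunicamycin and 9778, 9002 and 11917 with mock, and the interaction was -1.78 ± 0.23 (adjusted p = 6.6e-04). The third tunicamycin array of the mutant is its lowest, yet it lies well above the wild-type tunicamycin arrays. AT1G33811 had -2.05 ± 0.24 (adjusted p = 3.8e-04) and AT1G75900 -1.24 ± 0.22 (adjusted p = 0.0055), the second with tunicamycin arrays above mock arrays in the mutant. AT1G75880 had -1.94 ± 0.40 (adjusted p = 0.015), but its wild-type tunicamycin signal of 32.6 ± 8.2 is below the filter value, and with signals floored there the adjusted p was 0.28.

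**Figure D3:**
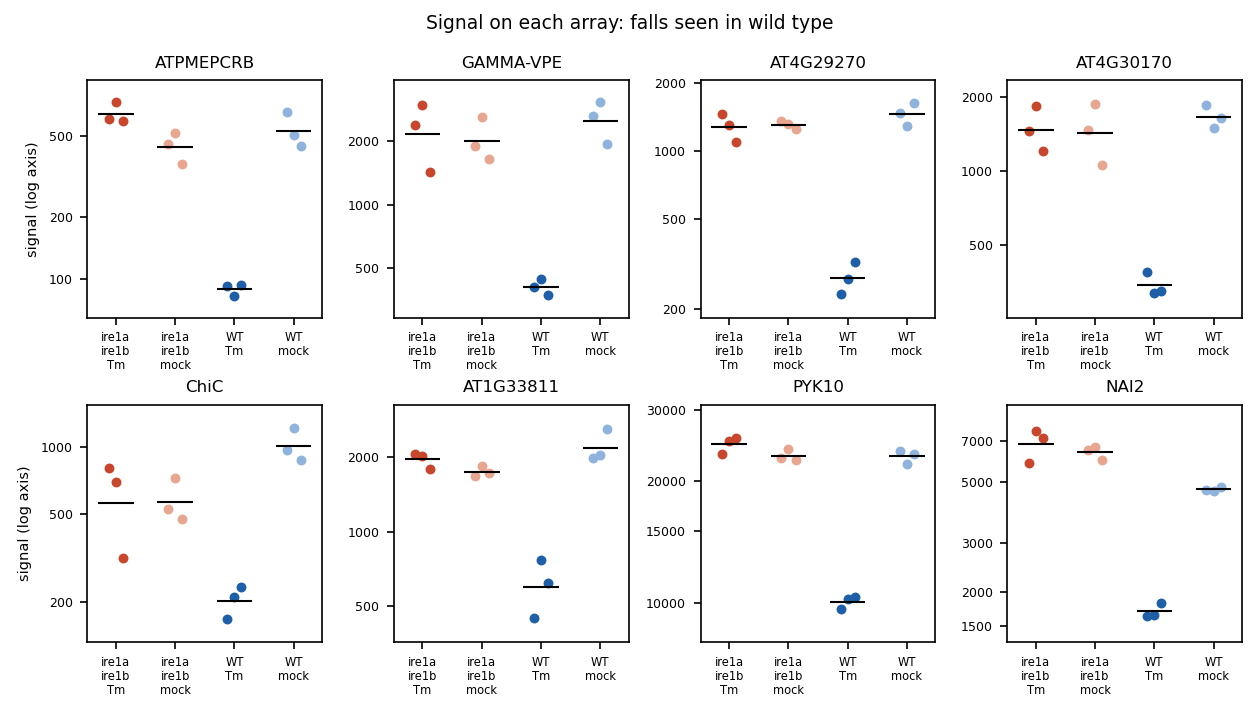
Signal (y axis, log scale) on each of the 12 arrays for 8 genes lower in the interaction, by group (x axis: ire1a ire1b with tunicamycin, written Tm, and with mock, then wild type, WT, likewise). Points are arrays and black lines are geometric means. In each panel the 3 wild-type tunicamycin points lie below every other point.

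Secreted defence proteins had 2 lower of 6 tested, with a median of -1.31. The class V chitinase ChiC had 799.8, 695 and 314 in ire1a ire1b with tunicamycin and 526, 723 and 474 with mock. Wild type had 167, 211 and 234 with tunicamycin and 971, 1217 and 869 with mock. Its spread among mutant arrays is wide but stays above the wild-type tunicamycin arrays, and the interaction was -2.31 ± 0.41 (adjusted p = 0.0055). OSM34, an osmotin, had 978, 1073 and 1224 in ire1a ire1b with tunicamycin and 1248, 1550 and 1571 with mock, with every tunicamycin array below every mock array (-0.41 ± 0.20, adjusted p = 1). The wild-type arrays had 417, 238 and 223 with tunicamycin and 1373, 1256 and 1157 with mock, an interaction of -1.75 ± 0.28 (adjusted p = 0.003).

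Smaller secreted groups gave fewer calls. Of 17 lipid transfer proteins and small secreted peptides 3 were lower (median -0.22), all of them RALF peptides, ligands of cell surface receptor kinases. RALFL22 averaged 1264 ± 217 and 1080 ± 198 in ire1a ire1b with tunicamycin and mock, against 564 ± 87.8 and 1307 ± 50.7 in wild type (interaction -1.45 ± 0.23, adjusted p = 0.0026). RALFL31 had -1.07 ± 0.21 (adjusted p = 0.012). RALFL33, at -1.15 ± 0.28 (adjusted p = 0.041), passed without ire1a ire1b tunicamycin array 3, ire1a ire1b mock array 2 or wild-type mock array 3, and in the other 9 fits without 1 array had adjusted p from 0.057 to 0.13. It did not pass with no filter (0.061) or no intensity trend (0.077) either. Dirigent proteins guide phenol coupling in the wall, and 2 of 9 were lower (median -0.35, grouped after the values were seen). AT4G11190 of that family had -1.97 ± 0.29 (adjusted p = 0.0017), while AT4G11210 had -1.36 ± 0.31 (adjusted p = 0.026). The count was 1 in the 8 fits in which AT4G11210 did not pass (0.055 to 0.081), those without wild-type tunicamycin array 1, 2 or 3, wild-type mock array 1 or 2, ire1a ire1b tunicamycin array 1 or 2, or ire1a ire1b mock array 3. Among berberine bridge enzyme-like oxidases 1 of 9 was lower, AT5G44380 with -1.92 ± 0.29 (adjusted p = 0.0023), and the median was -0.21.

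Membrane proteins also enter the ER as they are made. Of 5 receptor kinases tested 2 were lower (median -0.73), both of the CrRLK1L family that monitors the wall. FER, FERONIA, a receptor of RALF peptides, had 2953, 3683 and 2666 in ire1a ire1b with tunicamycin and 2461, 3446 and 2574 with mock. Among wild-type arrays it had 1237, 1405 and 1415 with tunicamycin and 3054, 3430 and 3156 with mock, an interaction of -1.39 ± 0.20 (adjusted p = 0.0016). THE1, which curbs growth when cellulose is deficient, had -1.31 ± 0.24 (adjusted p = 0.0067). The wild-type tunicamycin arrays of FER lie below all its other arrays, while for THE1 1 of them (194) lies above 1 ire1a ire1b mock array (189.6).

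MATE transporters export toxins and metabolites, and 6 of 23 were lower (median -0.43, grouped after the values were seen). AT5G38030 had 456, 460.0 and 421 in ire1a ire1b with tunicamycin and 414, 377 and 503 with mock, against 169.9, 159 and 172 and 478, 435 and 464 in wild type. Its interaction was -1.51 ± 0.18 (adjusted p = 4.6e-04). AT1G11670 had -1.63 ± 0.26 (adjusted p = 0.0033) and AT3G21690 -1.35 ± 0.21 (adjusted p = 0.0029). The TM9 endomembrane proteins, which span the Golgi and endosome membranes, had 2 of 8 lower (median -0.59, grouped after the values were seen). AT2G01970 had -1.11 ± 0.14 (adjusted p = 6.7e-04) and AT5G25100 -0.88 ± 0.15 (adjusted p = 0.0042).

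Other membrane classes rested on calls that single arrays decide. The sucrose exporter SWEET11 and the vacuolar sugar transporter TMT1 were the 2 lower of 14 membrane transporters (median -0.55). SWEET11 had -1.28 ± 0.27 (adjusted p = 0.017) and did not pass without wild-type tunicamycin array 2 (0.054), wild-type mock array 1 (0.051) or 2 (0.056), or ire1a ire1b mock array 1 (0.052). TMT1 had -0.72 ± 0.18 (adjusted p = 0.048) and passed only in the fits without wild-type tunicamycin array 3 or ire1a ire1b mock array 2, with adjusted p of 0.058 to 0.14 in the other 10, and 0.052 to 0.068 with centring, quantile normalization, no filter or no intensity trend. CYP71B6, of the ER-anchored cytochrome P450s, was the 1 lower of 9 (median -0.45). Its interaction was -0.71 ± 0.15 (adjusted p = 0.019), and it did not pass without wild-type tunicamycin array 1 (0.053), wild-type mock array 2 (0.062) or ire1a ire1b tunicamycin array 1 (0.052); without ire1a ire1b tunicamycin array 3 the class count was 2.

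As listed, the cytosolic, nuclear, organelle and membrane trafficking classes stayed without calls in limma. Over all tested genes 2.63% were lower. At that share each single class here, of 7 to 72 genes, would hold few calls or none. A count of 0 in any of them thus says little. Of 72 ribosomal proteins, 71 of them placed by added loci, 0 passed in either direction (0 also at an unadjusted p below 0.05), with interactions from -0.06 to 0.49 and a median of +0.12. Plastid-encoded genes, 66 in all, had 0 calls and a median of +0.14 (0 lower and 2 higher unadjusted), and the 12 mitochondria-encoded genes +0.16 with 0 calls (0 lower and 1 higher unadjusted). The 36 glutathione transferases and UDP-glycosyltransferases, cytosolic detoxification enzymes, had a median of +0.01 and 0 calls (1 lower and 2 higher unadjusted). For 17 transcription factors, 12 photosynthesis proteins and 7 proteasome subunits the counts were also 0 and the medians -0.03, +0.02 and +0.14. The 27 membrane trafficking proteins, many of which act on the cytosolic face of membranes, had 0 calls (0 unadjusted) and a median of +0.13. These medians sit at or near the +0.08 of all tested genes.

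Signal level moved with the share of calls. Over all probe sets, the lower calls made up 0.293% of the dimmest 20% by mean signal and 5.46% of the brightest 20%. Within the secretory classes, in order of signal, the shares were 2 of 40 genes, 1 of 31, 12 of 41, 17 of 52 and 35 of 52 (67.3%). The cytosolic, nuclear and organelle classes had 0 lower in all 5 bins of signal, 0 of 151 in the brightest included. Unclassified genes reached 41 of 1244 (3.30%) in the brightest bin. In each bin the secretory share was thus above that of the cytosolic, nuclear and organelle classes. In the 2 dimmest bins this rests on 2 of 40 against 0 of 18 genes and 1 of 31 against 0 of 23. Those counts are too small to tell the classes apart. How far dim signals hide further calls was not tested.

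**Figure D4:**
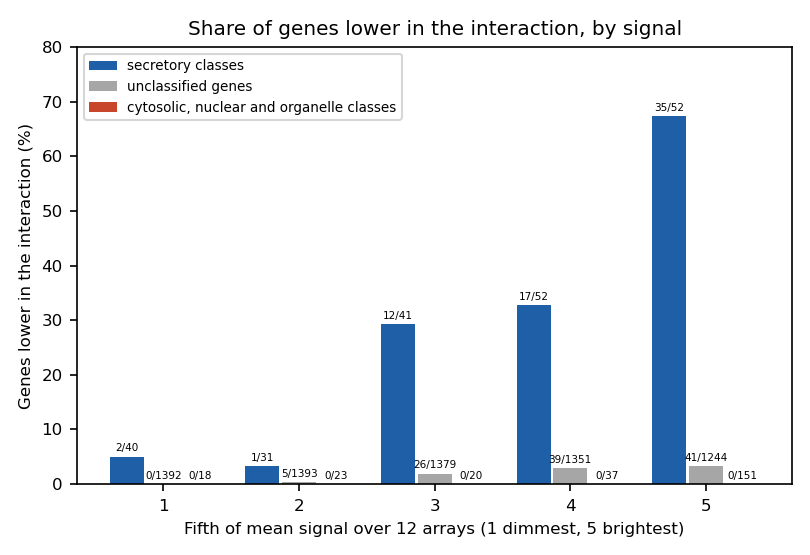
Share of tested genes lower in the interaction (y axis, percent) by mean signal over 12 arrays (x axis, 5 bins of equal size over all tested genes, 1 dimmest, 5 brightest) for secretory classes (blue), unclassified genes (grey) and cytosolic, nuclear and organelle classes (red, at 0 throughout). Numbers give lower over tested genes; the secretory share reaches 35 of 52 in the brightest bin.

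Among 10 ER folding and degradation proteins 1 passed in the interaction (10.0%, against 2.63% of all genes), with a median of -0.03. In ire1a ire1b 0 of the 10 passed as a rise, where only 0.0440% of all tested probe sets did. In wild type 3 did (30.0%, against 0.452% of all genes), but the interaction of none of these 3 passed. DER1, of ER-associated degradation, had +0.52 ± 0.15 in ire1a ire1b (limma adjusted p = 0.85) and +0.86 ± 0.15 in wild type (0.002). Its interaction was +0.34 ± 0.21 (adjusted p = 0.61). The calnexin gene AT5G07340 had +0.77 ± 0.14 in ire1a ire1b (adjusted p = 0.12) and +0.71 ± 0.14 in wild type (0.0045). Its interaction was -0.06 ± 0.19 (adjusted p = 0.95). For both genes every tunicamycin array lay above every mock array in each genotype. Both were chosen after their values were seen. ATERDJ3B, a co-chaperone of BiP, had 2142, 2416 and 2501 in ire1a ire1b with tunicamycin and 1584, 1797 and 1445 with mock. The signals of wild type were 1544, 1354 and 1364 with tunicamycin and 1628, 1697 and 1494 with mock, and the interaction was -0.73 ± 0.16 (adjusted p = 0.02). Here the mutant's tunicamycin arrays stand above all others, and the wild-type groups overlap. The call did not hold without wild-type tunicamycin array 2 (0.064) or 3 (0.053), wild-type mock array 1 (0.061) or 2 (0.065), ire1a ire1b tunicamycin array 2 (0.053), or ire1a ire1b mock array 1 (0.058) or 3 (0.057).

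None of the 3 transcription factors of the response passed (0 adjusted in limma, 1 at an unadjusted p below 0.05). BZIP60, the splicing target of IRE1, had 1200, 929 and 1067 in ire1a ire1b with tunicamycin and 1015, 771 and 1005 with mock. In wild type it had 1045, 1425 and 1554 with tunicamycin and 928, 904 and 687 with mock, an interaction of +0.47 ± 0.25 (adjusted p = 0.53). Its wild-type groups do not overlap and its mutant groups do, but the difference between the genotypes did not pass. BZIP28, a membrane-bound factor activated by proteolysis, had -0.67 ± 0.27 (adjusted p = 0.32), and BZIP17, its relative, +0.12 ± 0.28 (adjusted p = 0.93). Probe sets do not tell spliced from unspliced mRNA here. BIP1, BIP2 and BIP3 have no named probe set.

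Some interactions had another shape than a fall in wild type. In 9 of the 406 the change in ire1a ire1b was the larger in size, and 13 did not pass in wild type by themselves. AT3G47540 had 704, 600.2 and 1364 in ire1a ire1b with tunicamycin and 285, 186 and 392 with mock. Wild type had 166, 177 and 235 with tunicamycin and 262, 218 and 452 with mock. Its mutant tunicamycin arrays lie above all others, with a mean at 303% of mock in ire1a ire1b (adjusted p = 0.24) and -0.63 ± 0.34 in wild type (adjusted p = 0.41). The interaction was -2.23 ± 0.48 (adjusted p = 0.019), and it did not pass without wild-type tunicamycin array 1 (0.061) or 2 (0.059).

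AT3G14780, AT4G35985 and AT4G36430 were chosen after their values were seen, and in each the mutant's tunicamycin arrays lie above its mock arrays. AT3G14780 had 339.7, 216 and 639.8 in ire1a ire1b with tunicamycin and 96.7, 106 and 101 with mock, against 109, 83.2 and 72.3 and 86.2, 83.8 and 104 in wild type. Its interaction of -1.90 ± 0.43 (adjusted p = 0.025) passed in the fits without ire1a ire1b tunicamycin array 2 or 3, ire1a ire1b mock array 2 or wild-type tunicamycin array 1, and had adjusted p from 0.052 to 0.069 in the other 8 and 0.05 with no filter. AT4G35985 rose in ire1a ire1b (+1.25 ± 0.18, adjusted p = 0.023) and had +0.18 ± 0.18 in wild type (adjusted p = 0.68). Its interaction of -1.06 ± 0.25 (adjusted p = 0.037) passed without ire1a ire1b tunicamycin array 2, ire1a ire1b mock array 2, wild-type tunicamycin array 1 or wild-type mock array 3, and had 0.063 to 0.11 in the other 8 and 0.076 with no filter. The peroxidase gene AT4G36430 had 1260, 1217 and 1915 in ire1a ire1b with tunicamycin and 757, 749 and 1013 with mock, against 541, 434 and 579 and 947, 623 and 913 in wild type (interaction -1.45 ± 0.29, adjusted p = 0.013). There the arrays of the 2 genotypes move apart in opposite directions, and neither change passed alone (adjusted p = 0.62 in ire1a ire1b and 0.087 in wild type).

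The 12 higher probe sets comprise 3 named genes, which are on no class list, and 9 with no gene listed, of which 1 reached +3.60. AT3G55700 had 108, 70 and 49.6 in ire1a ire1b with tunicamycin and 81, 87.1 and 68.5 with mock. The wild-type arrays had 228, 251 and 239.7 with tunicamycin and 66.6, 59.6 and 55.7 with mock. The wild-type tunicamycin arrays stand above the rest, and the interaction was +2.11 ± 0.34 (adjusted p = 0.0033), although the wild-type mock mean of 60.6 lies below the filter value, so that the size is uncertain.

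AT1G10980 moved in opposite directions in the genotypes, with 57.5, 49.9 and 70.9 in ire1a ire1b with tunicamycin and 77.2, 88 and 88.5 with mock, against 144, 90.8 and 108 and 57.4, 61.8 and 51.5 in wild type. Its interaction was +1.51 ± 0.31 (adjusted p = 0.016, and 0.053 with no filter), from signals near or below the filter value. AT5G49100 had +1.73 ± 0.42 (adjusted p = 0.04), with an ire1a ire1b tunicamycin mean of 37.6 that is also below the filter value. It passed without wild-type tunicamycin array 1, ire1a ire1b tunicamycin array 1 or ire1a ire1b mock array 3 and had 0.054 to 0.11 in the other 9 fits without 1 array, 0.095 with no filter and 0.22 with floored signals.

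**Figure D5:**
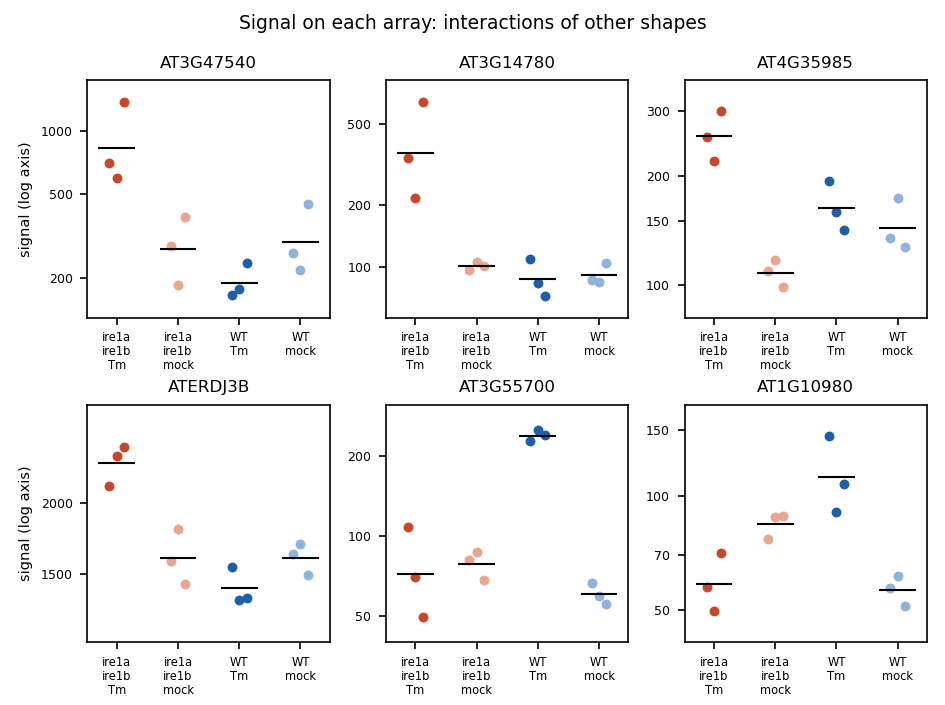
Signal (y axis, log scale) on each of the 12 arrays for 6 genes whose interaction is not a fall seen in wild type, by group (x axis: ire1a ire1b with tunicamycin, written Tm, and with mock, then wild type, WT, likewise). Points are arrays and black lines are geometric means. The ire1a ire1b tunicamycin points are highest for AT3G47540, AT3G14780, AT4G35985 and ATERDJ3B, and the wild-type tunicamycin points are highest for AT3G55700 and AT1G10980.

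Genes on no class list made up 111 of the 192, from 6759 tested (1.64%). AT3G56060 had the lowest interaction among them that passed, -2.67 ± 0.51 (adjusted p = 0.0094), with 346, 381 and 130.4 in ire1a ire1b with tunicamycin and 231, 314 and 155 with mock. Among wild-type arrays it had 39.1, 56.3 and 49.1 with tunicamycin, below the filter value, and 220.4, 342 and 240.0 with mock, so the size is uncertain. The mutant groups overlap and the wild-type groups do not.

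The neighbouring loci AT1G21670 and AT1G21680 were both lower. AT1G21680 had 597, 700.2 and 317 in ire1a ire1b with tunicamycin and 481, 640.4 and 295 with mock, against 129, 167 and 97.4 and 529.6, 622 and 407 in wild type. Its interaction was -2.18 ± 0.45 (adjusted p = 0.016); without wild-type mock array 2 the adjusted p was 0.052. AT1G21670 had -2.28 ± 0.52 (adjusted p = 0.027) and did not pass without wild-type tunicamycin array 1 (0.086) or 3 (0.061), wild-type mock array 1 (0.077) or 2 (0.078), ire1a ire1b tunicamycin array 1 (0.074) or 2 (0.07), or ire1a ire1b mock array 3 (0.059), nor with no intensity trend (0.052). In both genes array 3 of each mutant group is the lowest of its group.

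At the threshold the calls are a matter of small differences in p. The named genes just inside it were TMT1 and AT5G65470 at -0.72, SBT4.12 and AT3G06170 at -0.87 and AT1G15180 at -0.75, with adjusted p of 0.048 or 0.049. Each of the 5 lost its call in at least 9 of the 12 fits without 1 array, with adjusted p up to 0.14. Just outside were AT5G17610 at -0.71, AT3G08930 at -0.65, AT3G13410 at -0.57, AT3G18215 at -0.84 and AT1G74300 at -1.30, with adjusted p of 0.05 to 0.052. Of the 406 lower probe sets 244 passed in all 12 fits without 1 array, and 253 had an interaction of 2-fold or more.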

How the data were processed

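The deposited values are array intensity per probe set, made by the authors with MAS5 per the submitters' processing notes; its version is not given in the sources used here. The equal trimmed mean shows a common scaling of each array, so changes are relative to the bulk of each array. Of 22810 probe sets 64 controls were left out. The platform table pairs 13513 of the other 22746 with 1 gene and 503 with several, lists none for 8730, and 13436 matched the RefSeq table (TAIR10.1), which gave the symbols.

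The log2 signals were not normalized further. Probe sets above the 40th percentile of mean log2 signal were tested in limma 3.58.1 (R 4.3.3) with 1 mean per group, eBayes and an intensity trend. Tests were two-sided. The fit was tested on simulated data. The members, lists and naming rule were chosen with earlier results of these data known. Classes for genes known by locus number rest on locus lists from general knowledge, several added or corrected (8 names) after the values were seen; a gene has 1 probe set, the brightest. Named are the 15 lowest and up to 15 highest single-gene interactions that passed, up to 3 passing members per class, BZIP60, BZIP28, IRE1A, IRE1B, BIP1 to BIP3, PYK10, NAI2 and ATPMEPCRB, and the 5 genes on each side of the threshold. Alternatives were centring, quantile normalization, other filters, no trend, robust eBayes, array weights, floored signals, a replicate block and leaving out each array. The planned check for hydrophobic N termini was not run, as no protein sequences were used here.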

Additional observations from a re-analysis of the deposited data

Results flagged for a closer look

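By the interaction test (limma adjusted p below 0.05) the tunicamycin response was lower in wild type for 406 probe sets and higher for 12. The interaction is the wild-type response minus the ire1a ire1b response. Among the named genes, the interaction was -3.12 for ATPMEPCRB, -2.74 for GAMMA-VPE and -2.67 for AT3G56060 on the log2 scale. It was -2.37 for AT4G29270, -2.34 for AT4G30170, -2.31 for ChiC and -2.28 for AT1G21670. AT3G47540 had -2.23, AT1G21680 -2.18, AT1G33811 -2.05 and AT5G19890 -2.01. AT1G62290 and AT3G14067 each had -1.98, AT4G11190 had -1.97 and AT1G75880 -1.94. In the other direction AT3G55700 had 2.11, AT5G49100 1.73 and AT1G10980 1.51. The report gives the fits without 1 array that end some of these calls.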

How the results depend on the processing

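The lower calls numbered 276 to 606 and the higher ones 6 to 29 when 1 array was left out. The higher count was 6 when wild-type mock array 3 or tunicamycin array 2 was omitted, 7 when any one of ire1a ire1b tunicamycin array 2, wild-type tunicamycin array 3 and wild-type mock array 1 was, and 29 when ire1a ire1b tunicamycin array 3 was. Array weights gave 853 lower and 87 higher, with 23 lower in the membrane classes, and a filter at the 60th percentile gave 5 higher; the cause was not tested. The other planned settings gave 320 to 605 lower and 12 to 17 higher. Without 1 array the secretory classes held 48 to 80 lower genes (34 to 58 without the additions), the membrane classes 9 to 15 and the cytosolic, nuclear and organelle classes 0. Same-numbered arrays did not pair across all groups (r of 0.112 to 0.507 between the mutant's treatments and 0.017 to 0.131 between those of wild type). Between wild-type mock and the mutant groups r was 0.025 to 0.392, and between wild-type tunicamycin and the mutant groups -0.095 to 0.132. With the replicate block 605 were lower, 406 of them also lower without it, and 17 higher. Over 67 named genes and 1401 comparisons with a setting, 0 reversed, 149 were no longer past the threshold and 31 newly past it. Only 3 arrays a group, dim signals and the probe sets with no gene listed limit what can be called and named. The share of hydrophobic N termini and its alternatives were not run.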

Other observations

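Some lower genes outside the class lists carry a symbol, and those given here were chosen after their values were seen. SFP1, a sugar transporter-like gene, had an interaction of -1.63 (wild-type response minus ire1a ire1b response, log2, limma adjusted p = 0.0022), with +0.49 in ire1a ire1b and -1.14 in wild type. AT1G53210, listed as the Na+/Ca2+ exchanger NCL, had -0.94 (adjusted p = 0.002), and AT3G52060, listed as an N-acetylglucosaminyl transferase-like gene, had -1.22 (adjusted p = 0.011). ZW9 had -1.24 (adjusted p = 0.0029).

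FATB, the acyl-ACP thioesterase that acts in the plastid, was also lower. It had signals of 1280, 1419 and 1045 in ire1a ire1b with tunicamycin and 1146, 1378 and 1048 with mock, against 658, 722 and 866 and 1527, 1604 and 1643 in wild type. The wild-type groups do not overlap and the mutant groups do, and the interaction was -1.16 ± 0.20 (adjusted p = 0.0052). None of the 12 fits without 1 array ended the calls of these 5 genes.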
